A study of Mus musculus with 18 samples.

Results

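The genes described here are 6 members of the RFX family of transcription factors (Rfx1, Rfx2, Rfx3, Rfx4, Rfx5 and Rfx7) and the forkhead factor Foxj1, measured in testes of juvenile mice. They were taken by name, as every probe set annotated to just 1 of these 7 genes of the 18193 on the array, which gave 14 of the 45037 probe sets other than controls. Whole testes came from mice homozygous for repro9 (genotype repro9/repro9, called mutant below) and from wild-type controls. Mice were 14 or 17 days postpartum (dpp). There were 5 mutant and 3 wild-type arrays at 14 dpp and 5 of each genotype at 17 dpp, 18 arrays in all. The allele repro9 is a chemically induced change in the coding sequence of Mybl1, the gene of the transcription factor A-MYB, which acts in meiotic male germ cells, and the mutants carry it in every tissue. The strain is not stated here. Whether each array holds a separate animal is not stated either, and p-values then measure only the spread between these arrays, which may be technical.

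RFX proteins bind DNA through a winged-helix domain at a near-palindromic element called the X-box. Rfx1, Rfx2, Rfx3 and Rfx4 bind X-boxes of genes for cilia and flagella, and Rfx2 is needed in male germ cells after meiosis begins to shape the spermatid and its tail. Rfx5 works in a complex with Rfxank and Rfxap at the promoters of major histocompatibility complex (MHC) genes, Rfx7 is a ubiquitous regulator, and Foxj1 is the master regulator of motile cilia in multiciliated cells.

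Promoter sequences are given for Rfx2 and Rfx4, the members whose signal differed by genotype in the tests described further on. They are the 250 bases before the annotated start sites in RefSeq (build GRCm38.p6), written 5′ to 3′ on the strand of the gene, and capitals mark matches to AACNG, the core of the element that MYB proteins bind, on either strand. RefSeq annotates Rfx4 with start sites 82100 bases apart, and which of them the array's probe set reports is not known here.
Rfx2, minus strand of chr17:56831009-56831258: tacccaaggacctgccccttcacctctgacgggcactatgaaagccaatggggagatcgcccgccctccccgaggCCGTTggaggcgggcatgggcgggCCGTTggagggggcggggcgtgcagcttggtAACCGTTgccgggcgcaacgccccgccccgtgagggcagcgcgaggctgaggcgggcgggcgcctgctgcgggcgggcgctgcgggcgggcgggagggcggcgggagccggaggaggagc
Rfx4, first start site, plus strand of chr10:84755798-84756047: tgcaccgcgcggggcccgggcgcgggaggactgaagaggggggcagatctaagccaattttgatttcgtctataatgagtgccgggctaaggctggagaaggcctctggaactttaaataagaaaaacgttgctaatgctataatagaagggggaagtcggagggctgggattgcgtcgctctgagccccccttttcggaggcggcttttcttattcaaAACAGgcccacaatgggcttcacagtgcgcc
Rfx4, second start site, plus strand of chr10:84837898-84838147: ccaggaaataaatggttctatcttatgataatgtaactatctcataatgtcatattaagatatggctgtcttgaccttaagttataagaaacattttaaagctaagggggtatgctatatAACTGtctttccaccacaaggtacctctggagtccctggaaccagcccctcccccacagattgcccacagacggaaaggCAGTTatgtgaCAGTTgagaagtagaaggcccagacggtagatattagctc
The Rfx2 stretch held 4 matches, 2 of which overlap, 114 to 171 bases before the start site. Before the first Rfx4 start site there was 1 match, and before the second there were 3. Counted from 250 bases before to 50 bases after the start, Rfx1, Rfx2, Rfx3 and the second Rfx4 window held 4 matches each, Rfx5 6 and Rfx7 none. No promoter of Foxj1 was available, so it was not searched. AACNG is common: 80.3% of 32851 RefSeq such promoter windows held at least 1 match and 11.8% held 4 or more. The longer form TAACNG, found in 23.3% of promoters, matched once in the Rfx2 window, 2 times in the second Rfx4 window and 3 times in the Rfx5 window. A single side of the X-box, GTTNCC, present in 45.3% of all promoters, stood 2 times in the Rfx2 stretch, overlapping the AACNG matches nearest the start site. Neither the complete X-box (1.53% of promoters) nor the forkhead core TGTTTAC (3.65%) was found in any of the 7 windows, which says only that these letters are not in them. These matches describe the sequence; binding was not measured.

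The values are Affymetrix MAS5 signal, a linear intensity per probe set, whose median per array ran from 88.7 to 149. The arrays fell into 3 sets, for which there is no label, by the ratio of 3' to 5' signal of the β-actin control probe sets. A high ratio means little signal from the 5' end. The labels do not state its cause, which was not tested. In set 1 (7 arrays of all groups) this ratio was 2.31 to 2.92, in set 2 (4 arrays, all of 14 dpp) 1.45 to 1.49, and in set 3 (7 arrays, all of 17 dpp) 103 to 125. Signals on the arrays of set 3 may thus depend on where a probe set lies in its transcript, which was not tested. Set 3 holds 3 of the 5 mutant and 4 of the 5 wild-type arrays at 17 dpp, so that age is largely confounded with set, whereas both genotypes occur in each set. Genotype differences are therefore given also with the set as a block in the model and within sets. Where the scale of each array was set to a common median, the median genotype difference over all probe sets moved from 0.25 to 0.11 (log2) at 17 dpp, and the age difference in wild type from −0.44 to −0.08. The calls at 17 dpp were then 114 higher and 1341 lower, against 513 higher and 1341 lower as deposited.

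Rfx4 was lower in mutants at both ages, and Rfx2 was lower in mutants at 17 dpp. No member was higher in mutants by the main test, in which log2 signal was compared over all arrays with limma and Benjamini-Hochberg adjustment at a threshold of 0.05. At 14 dpp 1 of the 10 member probe sets that could be tested was called, where 0.196% of all 34764 tested probe sets were, and none was called higher in mutants. At 17 dpp 2 of 10 were called, both lower, against 5.33% of all (3.86% lower and 1.48% higher). The change of the genotype difference between the ages was called for 0 of 10 members and 0.204% of all probe sets; 1 member, the Rfx4 probe set, had an unadjusted p under the threshold. The remaining 4 probe sets, 2 of Rfx2 and 1 each of Rfx4 and Foxj1, lay below the filter on low signal and were not tested.

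**Figure D1:**
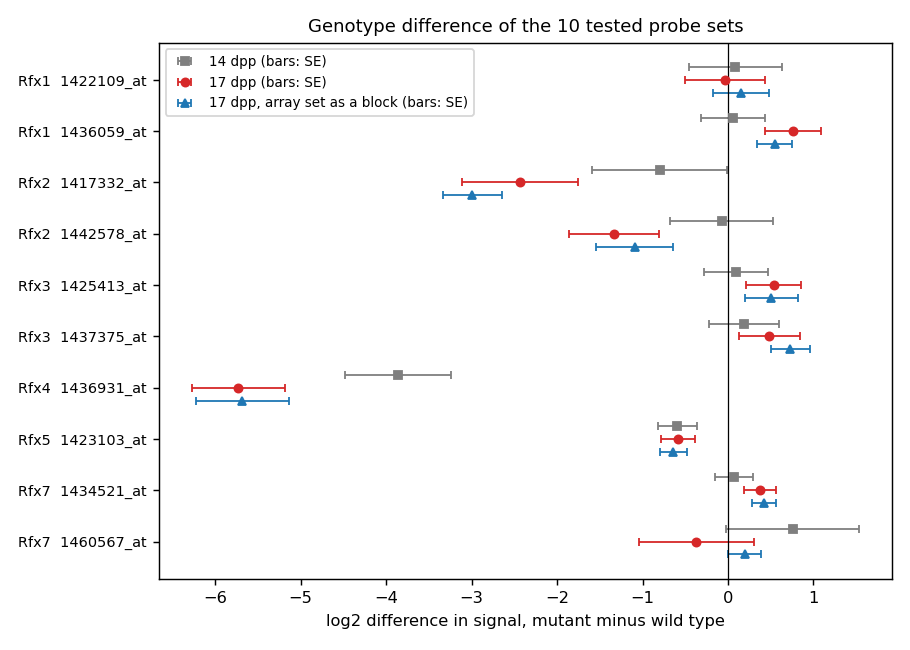
Log2 difference in signal, mutant minus wild type, for the 10 tested member probe sets at 14 dpp (squares), at 17 dpp (circles) and at 17 dpp from the block model (triangles, array set as the block), with bars of 1 standard error. Rfx4 lies at −3.86 and −5.73, Rfx2 at −2.44 at 17 dpp, and the Rfx5 values near −0.59 at both ages.

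Rfx4 (probe set 1436931_at; the gene spans chr10:84756036-84906538), a factor known from brain and from testis isoforms, showed the largest genotype difference of the members. At 14 dpp the 5 mutant signals were 28.6, 18.9, 25.5, 4.18 and 20.2 and the 3 wild-type signals were 157, 329 and 259. At 17 dpp the mutant signals were 17.6, 25.3, 89.3, 13.4 and 20.5, and the wild-type signals were 1485, 1377, 1203, 957 and 1957. Every mutant array lay below every wild-type array at the same age. Signal below an array's 40th percentile was treated as low, and 9 of the 10 mutant values lay there, while all 8 wild-type values lay above it. The mutant level is thus near background and the fold differences depend on it.
The difference was −3.86 ± 0.62 (log2, SE from limma; 14.5-fold lower, adjusted p = 0.00653) at 14 dpp and −5.73 ± 0.54 (53.0-fold lower, adjusted p = 1.39e-06) at 17 dpp. Groups that did not overlap and were lower in mutants made up 3.08% of probe sets at 14 dpp and 3.31% at 17 dpp. In the block model, with array set as the block, they were −3.73 (limma adjusted p = 0.00736) and −5.69 (adjusted p = 8.28e-07). With the replicate number as a block, which was treated as a pairing at 14 dpp only, the younger difference was −3.31 with a limma adjusted p of 0.107. The call at 14 dpp also ended without wild-type replicate 2 (adjusted p = 0.108 with limma) or replicate 3 (0.0522), whereas the call at 17 dpp was kept in all 23 alternatives. The larger difference at 17 dpp was not itself called (change of −1.87 ± 0.83, limma adjusted p = 0.834). A second Rfx4 probe set, 1432053_at, lay between 3.15 and 52.0 on all arrays and was not tested.

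**Figure D2:**
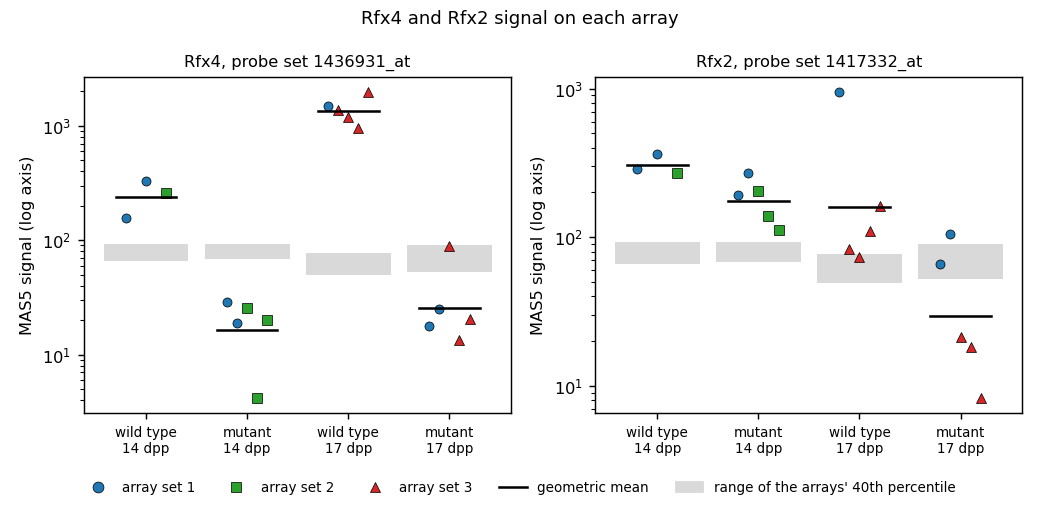
MAS5 signal of Rfx4 (1436931_at) and Rfx2 (1417332_at) on each of the 18 arrays (log axis), by genotype and age, with symbols for the 3 array sets, lines for geometric means and grey bands for the range of the arrays' 40th percentile. Rfx4 mutant arrays sit at 4.18 to 89.3 and wild-type arrays at 157 to 1957, and for Rfx2 the genotypes separate within each array set at 17 dpp.

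Rfx2 (1417332_at, chr17:56775897-56831008), the RFX factor required for spermatid development, was lower in mutants at 17 dpp, and its level also differed widely between array sets. At 14 dpp the mutant signals were 193, 272, 204, 140 and 113 and the wild-type signals 288, 366 and 272. These ranges met at 272 without overlapping, but the difference of −0.80 ± 0.79 was about its own standard error (limma adjusted p = 1). Probe sets with mutants lower and no overlap made up 3.08% of all at 14 dpp. At 17 dpp the mutant signals in set 1 were 65.7 and 104, beside a wild-type signal of 942. In set 3 the mutant signals were 21.4, 18.2 and 8.29, beside wild-type signals of 83.6, 73.3, 109 and 162. The genotypes did not overlap within either set, and they did across sets, through 1 mutant array of set 1, whose 104 lay within the wild-type range of set 3. The share of all probe sets without overlap inside a set was not counted.
The difference at 17 dpp was −2.44 ± 0.68 (5.41-fold lower, limma adjusted p = 0.0436). The block model gave −2.99 ± 0.34 (limma adjusted p = 7.13e-06), where 18.8% of all probe sets were called. Within set 3 the difference was −2.79 (limma adjusted p = 4.31e-04). Set 1 has 1 wild-type array at 17 dpp, so fits within set 1 or without set 3 assume that it varies like the other arrays; the Rfx2 difference within set 1 was −3.51 (limma adjusted p = 0.00683). Without the block the call was lost when wild-type replicate 1 or 5 or mutant replicate 3, 4 or 5 was left out (limma adjusted p from 0.0532 to 0.0968), and in 4 other alternatives. The change with age was −1.64 in the main model and not called (limma adjusted p = 0.963); in the block model it was −2.32 ± 0.53 and was called (adjusted p = 0.0361), where 1.2% of probe sets were. Within set 1, with that single wild-type array at 17 dpp, it was −3.01 and not called (limma adjusted p = 0.351).
A second tested Rfx2 probe set, 1442578_at, had a difference of −1.33 ± 0.52 at 17 dpp (limma adjusted p = 0.162), with geometric mean signals near the 40th percentile. Its correlation with 1417332_at over 18 arrays was 0.65 after the mean of each array set was subtracted. The remaining Rfx2 probe sets, 1433415_at and 1433416_at, ran from 1.27 to 140 and exceeded the 40th percentile on 2 arrays and 1 array.

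RNA of pachytene spermatocytes, the germ cells in which Rfx2 is known to be transcribed, differed in the same direction. All 9 listed markers of these cells were tested (Piwil1, Ldhc, Adam2, Clgn, Hspa2, Pgk2, Meig1, Cyct and Tesmin). Of them 8 were lower in mutants at 14 dpp and 9 at 17 dpp, and with the replicate number as a block 7 were lower at 14 dpp. The shares of all genes called lower were 0.32%, 5.83% and 0.137%. Their summed signal was 2014 to 3398 in mutants and 14050 to 22002 in wild type at 14 dpp. At 17 dpp it was 3090 to 4599 in mutants and 70496 to 156363 in wild type. Of 6 tested markers of round spermatids 0 were called at either age by limma, and 0 had an unadjusted p under 0.05. Their summed signal was 505 to 1727 over all arrays. At 17 dpp Acrv1 (geometric means 40.5 in mutants and 40.8 in wild type), Tnp1 (63.4 and 77.7), Prm2 (72.4 and 39.9) and Tssk1 (45.5 and 81.7) lay near the 40th percentile. Prm1 (101 and 150) and Spaca1 (311 and 251) lay above it. Signal this low in wild type leaves little room for a loss, so no conclusion on spermatids is drawn. In whole testis, fewer cells of a type and less RNA per cell cannot be told apart, and the part of these markers in the Rfx2 and Rfx4 results was not tested. Mybl1 itself (1456951_at) had geometric means of 126 in mutants and 637 in wild type at 14 dpp, and 167 and 1831 at 17 dpp. Its difference was −2.33 ± 0.52 at 14 dpp, not called (limma adjusted p = 0.112), and −3.46 ± 0.45 at 17 dpp (adjusted p = 5.25e-05).

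Rfx5 (1423103_at, chr3:94950689-94961561), the DNA-binding subunit of the MHC enhanceosome, had lower signal on every mutant array than on every wild-type array at the same age, by a small margin. Probe sets with mutants lower and no overlap made up 3.08% of all at 14 dpp and 3.31% at 17 dpp. At 14 dpp the mutants lay at 688, 671, 596, 612 and 615 and the wild types at 991, 1019 and 869. At 17 dpp the mutants lay at 695, 574, 694, 665 and 464 and the wild types at 1263, 719, 940, 966 and 782. All of these signals were well above the arrays' 40th percentile. The difference was −0.59 ± 0.23 at 14 dpp and −0.58 ± 0.20 at 17 dpp, and neither was called (limma adjusted p = 1 and 0.108). It was called at 17 dpp in the block model (−0.64 ± 0.16, limma adjusted p = 0.00814) and without set 3 (adjusted p = 0.0166), and its direction was the same at both ages under a common median (−0.71 and −0.73).

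Rfx1, Rfx3 and Rfx7, which are transcribed in many tissues, were not called for genotype in the main model. Rfx1 (1436059_at, chr8:84063564-84097001) ranged at 14 dpp from 591 to 826 in mutants and 590 to 746 in wild type. At 17 dpp mutants ranged from 169 to 521 and wild types from 104 to 307. The groups overlapped at both ages; the 17 dpp difference was 0.76 ± 0.32 (limma adjusted p = 0.2).
Rfx3 (1437375_at, chr19:27761721-28014669), a factor of motile and primary cilia, had 14 dpp signals of 148 to 220 (mutants) and 143 to 219 (wild types). At 17 dpp the range was 204 to 530 in mutants and 105 to 405 in wild type, with the set 3 arrays of each genotype above its set 1 arrays. The 17 dpp difference was 0.48 ± 0.36 (limma adjusted p = 0.49), and in the block model 0.73 ± 0.23 (adjusted p = 0.0341).
Rfx7 (1434521_at, chr9:72532169-72622949) had mutant signals of 1505 to 1979 and wild-type signals of 1508 to 1894 at the younger age. At 17 dpp they were 1768 to 2516 and 1231 to 2083, again with overlap. Its 17 dpp difference was 0.37 ± 0.19 (limma adjusted p = 0.284), and 0.42 ± 0.14 in the block model (adjusted p = 0.0474). The block model thus called 5 member probe sets at 17 dpp, where it called 10.8% of all probe sets higher and 8.05% lower: Rfx2, Rfx4 and Rfx5 were lower and Rfx3 and Rfx7 higher. At 14 dpp the signs for Rfx1 (0.06) and Rfx7 (0.07) turned under a common median, and neither was called.
The second probe sets of these genes gave no call for genotype in the main model. Those of Rfx1 (1422109_at) and Rfx3 (1425413_at) differed by −0.04 and 0.53 at 17 dpp. That of Rfx7 (1460567_at) followed the array set: at 17 dpp it was 492 to 672 on the 3 arrays of set 1 and 3129 to 6055 on the 7 arrays of set 3.

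**Figure D3:**
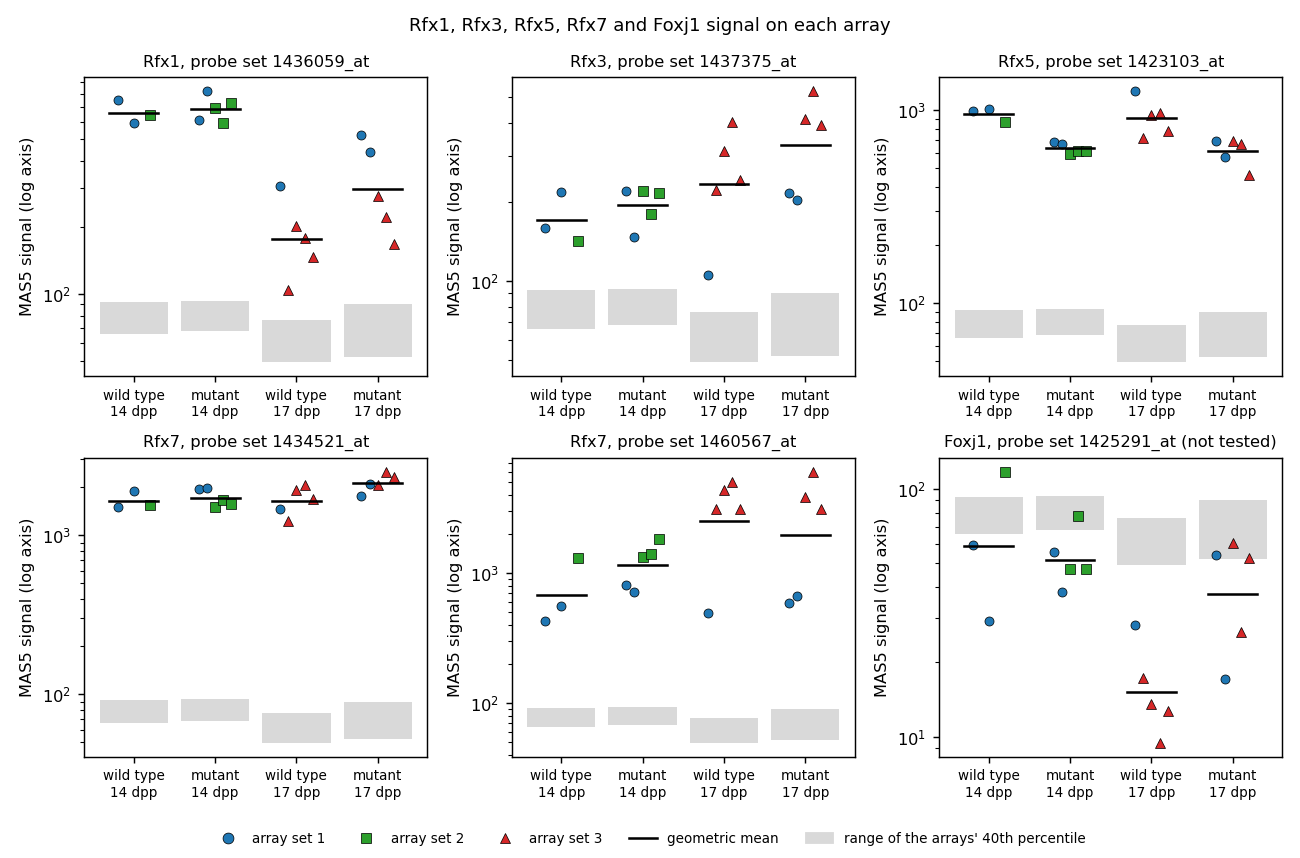
MAS5 signal of Rfx1, Rfx3, Rfx5, Rfx7 (2 probe sets) and Foxj1 on each of the 18 arrays (log axis), with symbols for the 3 array sets, lines for geometric means and grey bands for the range of the arrays' 40th percentile. Rfx5 mutant arrays lie below wild-type arrays at both ages, Rfx7 1460567_at is split by array set, and Foxj1 stays within or below the grey bands on all arrays but the wild-type one at 117.

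Foxj1 (1425291_at, chr11:116330704-116335499) was near background in every group. Its signals ran from 38.2 to 77.7 in mutants and 29.4 to 117 in wild types at 14 dpp. At 17 dpp they ran from 17.0 to 60.5 and from 9.40 to 28.3. Only 2 of the 18 values exceeded their array's 40th percentile, so the probe set was not tested in the main model. Geometric means were 51.7 and 58.9 at 14 dpp and 37.8 and 15.1 at 17 dpp (mutant and wild type). Without the filter the 17 dpp difference was 1.32 ± 0.51 and not called (limma adjusted p = 0.193). Of 9 genes listed for efferent duct epithelium, which carries Foxj1-dependent cilia beside the testis, 6 were tested. By limma 0 were called for genotype, with 2 at an unadjusted p under 0.05 at 17 dpp. The tested genes (Pax8, Cftr, Slc9a3, Cdh16, Krt8 and Krt18) are not particular to multiciliated cells and so do not report on those cells. Their summed signal was 294 to 1231 over all arrays.

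In the main model Rfx4 was higher and Rfx1 lower at 17 than at 14 dpp in wild type, where age is largely confounded with array set. The wild-type groups are the ones used for the genotype differences, so the age and genotype comparisons share arrays. Wild-type Rfx4 signals were 157 to 329 at 14 dpp and 957 to 1957 at 17 dpp, without overlap (2.52 ± 0.62, 5.72-fold higher, limma adjusted p = 0.0140). Groups without overlap and higher at 17 dpp made up 5.49% of probe sets. The rise of Rfx4 was not called in the block model (2.19, limma adjusted p = 0.107), within set 1 (2.71, 0.24), without set 3 (2.65, 0.102), or without wild-type replicate 1 or 3 of 14 dpp (0.0752 and 0.0541). In mutants the Rfx4 difference between the ages was 0.65 ± 0.54 (limma adjusted p = 0.437).
Rfx1 signal at 17 dpp depended on the array set, with wild-type geometric means of 307 in set 1 and 154 in set 3. Those of mutants were 477 and 219. In set 1 at 14 dpp the geometric means were 664 in wild type and 711 in mutants. Within set 1, which has 1 wild-type array at 17 dpp, the fall in wild type was not called. The age difference of Rfx1 in wild type was −1.89 ± 0.37 (3.72-fold lower at 17 dpp, limma adjusted p = 0.0045), −1.54 under a common median (adjusted p = 0.0294) and −1.06 in the block model (adjusted p = 0.0417), which called 7.63% of probe sets. In mutants it was −1.20 ± 0.32 (adjusted p = 0.0572 with limma), and the groups did not overlap in either genotype; groups that were lower and did not overlap made up 19.1% of probe sets in wild type and 6.74% in mutants. Thus 2 of 10 member probe sets were called with age in wild type, against 21.4% of all (4.86% higher and 16.5% lower), and 0 of 10 in mutants, against 1.92% of all; in the mutants Rfx1, Rfx2, Rfx3 and the second Rfx1 probe set had an unadjusted p under 0.05 with limma.
The direction for Rfx2 with age in wild type depended on the model. In wild type it was −0.94 ± 0.79 in the main model and not called (limma adjusted p = 0.407), 1.11 in the block model, and 1.62 without set 3 (adjusted p = 0.0498). In mutants it was −2.58 ± 0.68 (limma adjusted p = 0.0549) and −1.21 in the block model. With array weights the wild-type difference was called in the opposite direction (−1.59, limma adjusted p = 0.00687). The order of the ages for Rfx2 is thus not settled in wild type, while in mutants the difference was negative in all 21 alternatives. Within each age wild type was above mutant on every array of the same set.

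Among the members, Rfx2, Rfx4 and Rfx5 varied together over the 18 arrays after the mean of each array set was removed. Pearson's r was 0.88 for Rfx2 with Rfx4 (0.33 with the set means kept), 0.83 for Rfx4 with Rfx5 and 0.80 for Rfx2 with Rfx5, and −0.69 for Rfx3 with Rfx2 and with Rfx4. With the set means kept, r was 0.74 for Rfx4 with Rfx5, 0.64 for Rfx2 with Rfx5, −0.84 for Rfx3 with Rfx2 and −0.09 for Rfx3 with Rfx4. These values are descriptions over arrays that share groups and sets, and the group differences enter them. Of all genes, those most like Rfx4 by the same measure were 4932414N04Rik (0.97), Cyct (0.96, testis cytochrome c), Ldhal6b (0.96, a testis lactate dehydrogenase-like gene), Lypd4 (0.96) and Smpd5 (0.95). Their differences at 17 dpp ran from −7.21 to −3.74. Those most like Rfx2 were Usp2 (0.96, a ubiquitin protease), Cdc42ep3 (0.95), Ttc39d (0.95), Dnah8 (0.94, a dynein heavy chain of the sperm axoneme) and Dazap1 (0.94, an RNA-binding protein of germ cells). With the set means kept, r for these 5 genes with Rfx2 was only 0.14 to 0.83, whereas for the 5 genes most like Rfx4 it was 0.84 to 0.97. Differences at 17 dpp of the genes most like Rfx2 ran from −4.46 to −0.82.

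Genes for motile cilia and the sperm tail, the class that RFX factors and Foxj1 are known to activate, were lower in mutants at 17 dpp. Of 42 listed axoneme genes 33 were tested; 20 were lower and 0 higher at 17 dpp, where 5.83% of 15307 tested genes were called lower, and the list's median was −2.42 against 0.26 over all genes. Named here are the 6 genes of the list with the smallest p at 17 dpp. They included Spag6l, a central pair protein (geometric means 9.98 in mutants and 1824 in wild type, −7.51 ± 0.67), Zmynd10, a dynein assembly factor (14.3 and 905, −5.98 ± 0.65), and Meig1, a protein of the forming sperm tail (504 and 17317, −5.10 ± 0.26). Dnah8 (−4.46 ± 0.48), Ccdc39, a ruler of the axonemal repeat (−4.35 ± 0.45), and Ak7 (−2.14 ± 0.21) were also called, all with limma adjusted p-values of at most 7.29e-06. The mutant signals of Spag6l and Zmynd10 are low, and their differences depend on that level.
At 14 dpp 3 axoneme genes were lower, Zmynd10 (−5.02 ± 0.75), Meig1 (−2.61 ± 0.30) and Dnah7a (−2.49 ± 0.48), where 0.32% of genes were, and the list's median was −1.30. With the replicate number as a block 2 were lower (background 0.137%). Without array set 3 the count at 14 dpp was 9 (background 1.04%). At 17 dpp that setting leaves 1 wild-type array, and the list median was −4.33. In the block model the counts were 7 at 14 dpp and 28 at 17 dpp, where 0.581% and 11.4% of genes were called lower. In wild type 13 axoneme genes rose between the ages and 0 fell, where 7.06% of genes rose; in mutants 0 of 33 were called by limma, 6 had an unadjusted p under 0.05, and 1.76% of all genes were called. Meig1 is also one of the pachytene markers, and the axoneme genes differed in the same arrays as those markers did.

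**Figure D4:**
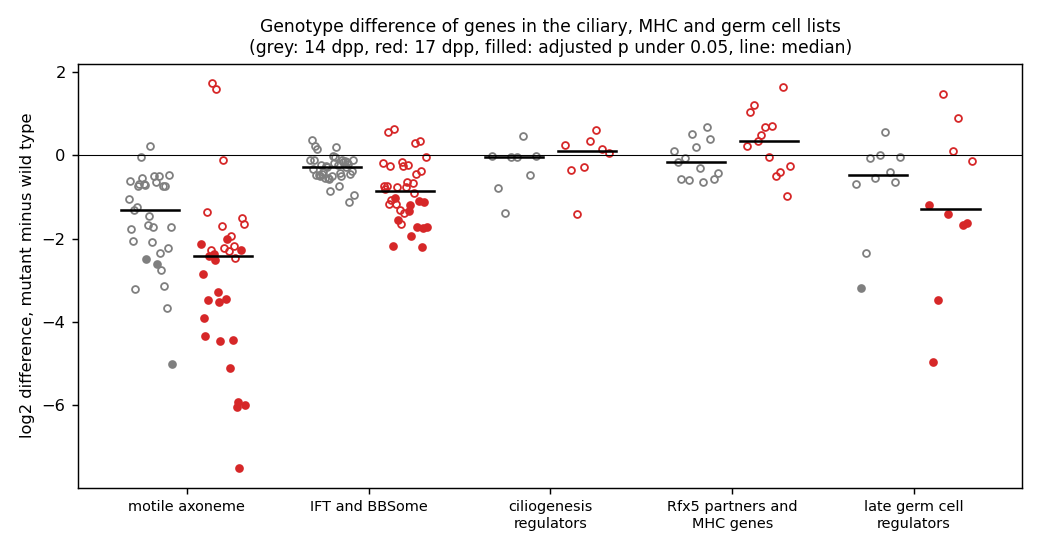
Log2 difference in signal, mutant minus wild type, of each tested gene in 5 lists at 14 dpp (grey) and 17 dpp (red), with filled points for adjusted p under 0.05 and lines for list medians. At 17 dpp 20 of 33 axoneme genes and 12 of 38 intraflagellar transport and BBSome genes are filled, all below 0, and none of the ciliogenesis regulators or MHC genes is. Among the ciliogenesis regulators, Myb and Cdc20b have low signal in wild type at 17 dpp, which leaves little room for a loss.

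Intraflagellar transport (IFT) and BBSome genes, whose products carry cargo along cilia of all kinds and which hold known X-box targets, differed less in size. Of 38 tested genes (41 listed) 12 were lower and 0 higher at 17 dpp, where 5.83% of all genes were called lower and 2.03% higher. The list median at 17 dpp was −0.85. At 14 dpp 0 were called by limma, where 0.32% of genes were called lower. The list median at 14 dpp was −0.28, and 2 genes had an unadjusted p under 0.05 with limma. The examples by rule were Ttc21b (geometric means 793 in mutants and 3656 in wild type, −2.21 ± 0.25), Bbs7 (573 and 2575, −2.17 ± 0.27), Ift80 (620 and 2359, −1.93 ± 0.23), Ttc26 (−1.75 ± 0.25), Ift74 (−1.19 ± 0.23) and Ttc8 (−1.12 ± 0.20), with limma adjusted p from 9.47e-06 to 0.00355. In the block model 29 were lower at 17 dpp, where 11.4% of genes were. Without set 3, which leaves 1 wild-type array at 17 dpp, the list median was −0.91. In wild type 9 rose with age and 1, Bbs9, fell, where 7.06% of genes rose and 18.9% fell.
Upstream regulators of ciliogenesis other than the RFX factors were not called, some of them at low signal. Of 12 listed genes 8 were tested and 0 were called at either age by limma (medians −0.04 and 0.11), with 1 at an unadjusted p under 0.05 at 17 dpp. The median at 17 dpp was −0.03 under a common median. The one furthest from 0 at 17 dpp was Deup1, which builds centrioles in multiciliated cells (−1.39 ± 0.59, adjusted p = 0.196). In wild type at 17 dpp the level below which signal was treated as low was 49.2 to 76.6. Geometric means of Myb (41.1) and Cdc20b (45.7) lay below it, and those of Foxn4 (85.0) and Ccno (88.6) little above it. Those of E2f4, Deup1, E2f5 and Tfdp1 were higher (144 to 2480). For the genes of low signal there was little room for a loss, so their missing calls are not read as no difference.
Of 3 testis genes known for an X-box bound by RFX proteins, Gtf2a1l, a germ cell subunit of TFIIA, was lower at both ages. Its geometric mean was 34.9 in mutants and 316 in wild type at 14 dpp, and 89.1 and 2782 at 17 dpp, with differences of −3.17 ± 0.48 (limma adjusted p = 0.00404) and −4.96 ± 0.42 (adjusted p = 4.01e-07). Linker histone H1f6, a testis H1 variant, differed by 0.04 ± 0.69 and Lmna, encoding lamin A, by 0.43 ± 0.47 at 17 dpp, and neither was called. Wild-type H1f6 signal was low, with geometric means of 28.4 at 14 dpp and 57.9 at 17 dpp. The level below which signal was treated as low was 49.2 to 76.6 on the wild-type arrays of 17 dpp. Signal this low leaves little room for a loss, so no conclusion on H1f6 is drawn.

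Other regulators of late spermatocytes and spermatids were lower alongside Rfx2 and Rfx4. Of 12 listed 10 were tested, 1 was lower at 14 dpp (Gtf2a1l) and 6 at 17 dpp, where 0.32% and 5.83% of all genes were, with a median of −1.29 at 17 dpp. Beside Gtf2a1l and Mybl1 these were Tbpl1, the TBP-like factor of spermatids (−1.67 ± 0.28), Tcfl5 (−1.61 ± 0.33), Sox30 (−1.40 ± 0.27) and Crem, the cAMP-response activator of spermatid genes (−1.19 ± 0.31), with limma adjusted p from 8.74e-04 to 0.0276. Taf7l (0.90 ± 0.27, limma adjusted p = 0.0602) and Sohlh1 (1.49 ± 0.75, adjusted p = 0.29) had positive differences at 17 dpp and were not called. In wild type 8 of the 10 genes had higher signal at 17 than at 14 dpp, whereas geometric means of Sohlh1 were 612 at 14 dpp and 64.4 at 17 dpp. Although listed, Sohlh1 is therefore not read as a regulator of late stages here. Without set 3 the count at 17 dpp was 3 lower and 2 higher (background 7% and 3.08%).
Partners of Rfx5 and MHC genes were not called for genotype in the main model. Of 16 listed 13 were tested, with medians of −0.15 at 14 dpp and 0.34 at 17 dpp against 0.00 and 0.26 over all genes. Rfxank differed by −0.96 ± 0.87 and Rfxap by −0.26 ± 0.39 at 17 dpp. In the block model Cd74, the invariant chain (0.94, limma adjusted p = 0.0434), and Nlrc5, the class I transactivator (1.71, 0.042), were higher in mutants at 17 dpp, where 14.4% of genes were called higher. Macrophage markers, for cells that carry class II MHC, were called higher for 1 of 8 genes at 17 dpp (Csf1r, 0.90 ± 0.25, limma adjusted p = 0.0375), where 2.03% of genes were, for 3 of 8 in the block model and for 0 under a common median. Their summed signal was 6797 to 10890 in mutants and 3534 to 7238 in wild type. The part of macrophages in the MHC values was not tested.

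Markers of the remaining cell types were not called for genotype by limma in the main model; at 17 dpp 7 spermatogonial, 2 Sertoli, 1 Leydig and 0 epididymal genes had an unadjusted p under 0.05. They comprised spermatogonia (8 genes tested, median 0.96 at 17 dpp), Sertoli cells (8, median 0.57), Leydig cells (4, with summed signal of 2118 to 6658 in mutants and 1394 to 3509 in wild type) and epididymis (3, median −0.22), against a median of 0.26 over all genes. In the block model 4 spermatogonial and 4 Sertoli genes were called higher in mutants at 17 dpp, where 14.4% of all genes were. Summed spermatogonial signal at 17 dpp was 8212 to 19078 in mutants and 3739 to 11559 in wild type, and summed Sertoli signal was 32454 to 63938 and 23027 to 51504.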

How the data were processed

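Biotin-labelled cRNA from total RNA of homogenized testes was hybridised to Affymetrix mouse arrays, per the labels' protocols. The deposited intensity values are MAS5 signal on a linear scale, per the submitters' processing notes; no MAS5 version is stated there. The mean signal without the lowest and highest 2% was 500 on 11 arrays and 395 on the 7 arrays of set 3. The table held 45101 probe sets, of which 64 controls were left out; 34945 named a single gene, 932 several genes and 9160 no gene. Annotation came from GEO's platform table, with symbols updated through RefSeq.

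A linear model on log2 signal with a mean for each of the 4 groups was fitted to the 18 arrays in limma 3.58.1 (R 4.3.3, moderated with an intensity trend, 14 residual degrees of freedom). All p-values are two-sided and adjusted by Benjamini-Hochberg over 34764 probe sets, those whose signal exceeded the 40th percentile of the array on 3 arrays or more. The block model added the array set as a term. The threshold was 0.05, and ± is the limma standard error. For counts of genes (15307), the brightest tested probe set stood for the gene. Array sets were split at β-actin ratios of 1.9 and 10. The fit was tested on simulated data with independent noise and no array sets, so that check does not cover effects of the set. The number of arrays limits the precision.

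The members, the gene lists, the array sets and the tests were chosen with earlier results of these data known. Named were all member probe sets, each gene led by its brightest one, the 5 genes most correlated with each member called at 17 dpp, and up to 6 genes per pathway list with the smallest p at 17 dpp; other list genes were named after their values were seen. Alternatives changed the log transform, scaling, filter, array set, weights, moderation, pairing, arrays in the fit and single replicates. Whether replicate numbers pair arrays was checked by correlating, between mutant and wild-type arrays with one number, the deviations from the group mean. These correlations were 0.283, 0.355 and 0.385 for the 3 pairs of 14 dpp, each pair within 1 array set, and were treated as pairs although only 3 of the 6 arrays correlated best with their own number. Those of 17 dpp spanned −0.227 to 0.777, and the 5 numbers there were not taken to pair arrays. The −0.227 came from the only pair with arrays of different sets, and the other pairs of 17 dpp ran from 0.207 to 0.777. These correlations thus gave no clearer ground for pairing at 14 than at 17 dpp.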

Additional observations from a re-analysis of the deposited data

Results flagged for a closer look

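Single arrays far from the other arrays of their group were sought in 30 combinations of a member probe set and a group of 5, by Dixon's ratio, and 2 were found; chance alone gives about 1 in 20. For Rfx4 (1436931_at), mutant replicate 4 at 14 dpp had a signal of 4.18, where the other mutants at that age had 18.9 to 28.6; all of these are low signals, and without that array the 14 dpp difference was −3.37 with a limma adjusted p of 0.00775. For Rfx7 (1460567_at), wild-type replicate 1 at 17 dpp had 492, where the other wild types had 3129 to 5005; it is the only array of set 1 in that group.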

How the results depend on the processing

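Rfx4 at 17 dpp kept its call and direction in all 23 alternatives, with differences from −6.18 to −4.98, and at 14 dpp its direction in all 21 (−4.33 to −2.89) and its call in 15. Rfx2 at 17 dpp kept its direction in all 23 (−3.51 to −1.79) and its call in 14. The number of member probe sets called for genotype at 14 dpp, 1 in the main model, was 0 within array set 1, 0 within set 2, 0 with an ordinary linear model at a threshold of 0.025, 0 with the replicate block and 4 with array weights, a setting that called 3409 of all probe sets higher and 1948 lower at 14 dpp, against 0 and 68. At 17 dpp, 2 in the main model, it was 1 with log2(signal + 16), 1 without a filter, 1 with only the arrays compared and 5 with the array set as a block. For the change with age, 0 in the main model, it was 1 with the set as a block and 1 without set 3. For age in wild type, 2 in the main model, it was 1 with the set as a block (1065 higher and 1589 lower over all probe sets). With array weights it was 4 (4888 and 12705). For age in mutants, 0 in the main model, it was 1 with log2(signal + 16) (301 higher and 1220 lower over all). With a stricter filter (60th percentile) it was 2 (305 and 796 of 23687), and with array weights 3 (2674 and 9799). Leaving out 1 array at a time gave 0 to 1 calls at 14 dpp, 1 to 2 at 17 dpp, 1 to 3 for age in wild type and 0 to 2 for age in mutants. Over all probe sets these fits called 24 to 65 lower at 14 dpp, and 173 to 2347 higher and 1033 to 1600 lower at 17 dpp. The 3 member calls for age in wild type came without wild-type replicate 1 of 17 dpp, which called 2928 of all higher and 9546 lower. The 2 for age in mutants came without mutant replicate 1 (1559 and 5392) or 2 (1187 and 4951) of 17 dpp. Signs turned for Rfx1 at 14 dpp (−0.0574 with a common median, and −0.0147 to 0.155 without single arrays, with −0.00662 and −0.0147 below 0), Rfx7 at 14 dpp (−0.0489 with a common median, −0.0341 with array weights), Rfx3 at 14 dpp (−0.0507 within set 1), Rfx4 with age in mutants (−0.14 within set 1) and Rfx2 with age in wild type (1.11, 1.54 and 1.62 with the set as a block, within set 1 and without set 3), and the cause was not tested. The calls over all probe sets at 17 dpp were 1806 higher and 1814 lower with the replicate block, which was not taken as a pairing there (3 of 10 arrays correlated best with their own number). At 14 dpp 30 probe sets were lower with it, against 68; it changed no other member call at these ages. The counts of the gene lists under other settings were added after the data had been seen. Age in wild type gave 2401 higher and 1315 lower calls with a common median, against 1688 and 5750, and age in mutants 1395 and 329 against 147 and 520.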
